A study of Mus musculus with 2 samples.

Results

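The genes described here are 40 mouse genes of the interferon response and of innate sensing, out of 49315 genes in the deposited table. They were taken by name and fall into 6 sub-groups by role, namely 18 interferon-induced effectors, 4 members of the interferon-induced transmembrane (IFITM) family, 4 STAT and IRF transcription factors, 4 sensors of nucleic acids, 8 inflammasome genes and 2 Toll-like receptors. All 40 symbols were found in the table. Of these genes, 23 were counted in the normoxia library and 7 in the library from chronic intermittent hypoxia (CIH), 5 of them in both, and 15 had 0 counts in both.

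Interferons are secreted proteins that signal through surface receptors, JAK kinases and STAT and IRF transcription factors, which bind interferon-response elements in DNA and switch on a large set of antiviral genes. Macrophages also carry sensors that start this programme, among them Toll-like receptors for microbial products and the helicases MDA5 and RIG-I for viral RNA. Inflammasomes are protein platforms that form when receptors such as NLRP3, NLRC4 or AIM2 find danger signals, and they activate caspase-1, which matures IL-1β and IL-18 and opens the pore protein gasdermin D.

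RNA was measured by sequencing in cells labelled as macrophages of the dorsal root ganglion, a cluster of sensory neurons next to the spinal cord, in 1 library per group. The CIH mice spent 8 h a day for 14 days in chambers whose oxygen cycled between 21% and 8%, each cycle lasting 6 min. The normoxia mice had the same chamber routine with room air at 21%, and material was taken about 18 h after the final exposure. The sources used here do not state strain, age, sex, how many mice stand behind each library or how the cells were obtained. The CIH column is known only by the initial C of its code, since its number matches no label.

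The normoxia library held 2171348 counts over 4640 genes and the CIH library 145056 counts over 2050 genes, a 15.0-fold difference in depth. Genes seen in a single library had a median of 229 counts in normoxia and 39 in CIH. If such genes mostly stem from 1 RNA molecule, an untested assumption, the libraries hold about 9482 and 3719 molecules. Levels are given in CPM, a gene's counts scaled to its library's total, or as the authors' TPM where genes of different length are compared. Intervals are 95%, on estimated molecules unless reads are named, and cover counting error only. They are exact on reads but approximate on estimated molecules, which are not whole numbers. The error of the 229 and 39 and the spread of reads per molecule are not covered. With 1 library per group no p-value exists for any difference, and none has a replicate check. The 12 macrophage markers, 10 of them counted in normoxia, summed to 4914 CPM there and to 41.4 CPM in CIH, where Adgre1, Cd68, Csf1r, C1qa, C1qb, C1qc, Mrc1, Fcgr1 and Cd163 were at 0 and Cx3cr1 alone was counted, with 6 counts. The labelled cell type is therefore not seen in the defining markers of the CIH library. Fewer cells of a type and less RNA per cell cannot be told apart in bulk samples.

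Effectors of this kind are classically switched on through the interferon-response element, so its matches are shown for the 6 genes that hold one and had the most counts. The element was searched as GAAA, any 2 bases, then GAAA, on both strands, in the 250 bases before the start site, in RefSeq promoters of GRCm38.p6 that were found for 32 of the 40 genes (Mx1, Mx2, Usp18, Ifi27l2a, Rtp4, Zbp1, Gsdmd and Tlr4 had no entry). Each sequence reads 5′ to 3′ on the gene's strand, with matches in capitals.
Ifitm2, chr7:140955988-140956027, minus strand: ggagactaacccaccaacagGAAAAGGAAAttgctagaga
Rsad2, chr12:26456543-26456592, minus strand: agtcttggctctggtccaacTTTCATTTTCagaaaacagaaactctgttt
Isg15, chr4:156200855-156200916, minus strand: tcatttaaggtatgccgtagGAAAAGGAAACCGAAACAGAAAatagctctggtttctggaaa
Stat2, chr10:128270256-128270305, plus strand: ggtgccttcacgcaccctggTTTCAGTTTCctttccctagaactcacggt
Ifit3, chr19:34583353-34583436, plus strand: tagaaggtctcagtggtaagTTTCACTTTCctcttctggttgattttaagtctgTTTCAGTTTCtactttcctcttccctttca
Ifit1, chr19:34640765-34640833, plus strand: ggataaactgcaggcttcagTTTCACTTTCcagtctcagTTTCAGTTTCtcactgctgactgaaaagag

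Isg15 held 3 overlapping matches on the gene's strand, ending 56 bases before the start site, whereas the matches of Rsad2, Stat2, Ifit3 and Ifit1 lay on the opposite strand. Of the 32 genes with a promoter, 9 (28.1%) held the element, against 936 of 27025 genes (3.46%). The genes were picked as interferon and sensing genes, so a share above that of all genes comes with the choice of list. The 9 were the 6 above together with Bst2, Oas1a and Ifit3b, that is, 7 of 13 effectors, 1 of 4 IFITM genes and 1 of 4 STAT and IRF factors. No match was found in these windows of the 3 sensor genes, the 7 inflammasome genes or the Toll-like receptor gene Tlr2. The gamma-interferon element, searched as TTC, any 3 bases, then GAA, was found in 5 of the 32 (15.6%) against 8.13% of all genes, among them Irf1 and Bst2. By detection, the interferon-response element was found in 8 of 20 genes counted in normoxia, 3 of 6 counted in CIH and 1 of 11 counted in neither. The 3 in CIH (Ifitm2, Rsad2 and Bst2) are also among the 8. Genes counted in neither include inflammasome genes, a sub-group without a match. The same split over all genes was not computed, so no link of the element to detection can be read from these numbers. A match is a string of letters and not a measured binding site.

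The IFITM family gave the highest levels of all sub-groups. These genes encode small membrane proteins that hinder the entry of enveloped viruses into cells, and the 4 genes lie close together on chromosome 7. Ifitm2 (ENSMUSG00000060591, 140954837 to 140955987) had 2234 counts in normoxia and 46 in CIH. Ifitm3 (ENSMUSG00000025492, 141009586 to 141010770), the member best known for restricting influenza virus, had 971 counts in normoxia and 203 in CIH. Ifitm6 (ENSMUSG00000059108, 141015699 to 141017924) had 524 and 171 counts. Ifitm1, which lies between Ifitm2 and Ifitm3 in the cluster, had 0 counts in both libraries.

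Relative to library totals, Ifitm2 was lower in CIH and its neighbours Ifitm3 and Ifitm6 were higher. Ifitm2 held 1029 CPM in normoxia and 317 CPM in CIH, a ratio of CIH over normoxia of 0.308, with an interval of 0.011 to 1.96. Ifitm3 held 447 and 1399 CPM, a ratio of 3.13 (0.702 to 15.0). Ifitm6 held 241 and 1179 CPM, a ratio of 4.88 (0.788 to 44.0). All 3 intervals include 1, because the counts stand for about 9.76 and 1.18 molecules of Ifitm2, 4.24 and 5.21 of Ifitm3, and 2.29 and 4.38 of Ifitm6.

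The order within the family, which does not depend on scaling between libraries, differed. In normoxia the authors' TPM was 2874 for Ifitm2, 1207 for Ifitm3 and 488 for Ifitm6, which ranked 30, 86 and 238 among the counted genes. In CIH Ifitm3 came first with 2898 TPM, then Ifitm6 with 1829 and Ifitm2 with 680, at ranks 36, 60 and 169. Ifitm2 gave 59.9% of the family's counts in normoxia (33.3 to 82.8) and 11.0% in CIH (0.45 to 44.0), so the intervals overlap. Of the stretches of 75 bases in the Ifitm2 transcript, 42.0% also occur in transcripts of other genes, so reads of Ifitm2 may have been split or dropped in counting. The overlapping gene model Gm45717, which shares the most, had 0 counts in both libraries. The share found in other genes was 0.66% for Ifitm3 and 0% for Ifitm6.

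Neutrophil markers moved in the same direction as Ifitm3 and Ifitm6. The 14 markers, 10 counted in normoxia and 11 in CIH, summed to 18349 CPM in normoxia and 103236 CPM in CIH, a ratio of 5.63 (4.69 to 6.77), with Ly6g, Elane, Cxcr2 and Csf3r at 0 in normoxia and Mmp8, Mmp9 and Mpo at 0 in CIH. The 5 monocyte markers summed to 5012 and 6094 CPM, a ratio of 1.22 (0.703 to 2.05) and 0.697 by TMM, a scaling that trims extreme genes before averaging log ratios, with Ccr2 at 0 in CIH. Erythroid markers, the largest marker list in normoxia, summed to 95295 and 78721 CPM, a ratio of 0.826 (0.722 to 0.943). That ratio was 0.473 by TMM, and 0.907 (0.792 to 1.04) when scaled to housekeeping genes, where the interval includes 1. The list was mixed, with Hba-a2 at a ratio of 0.992 and Slc4a1 at 4373 and 0 counts. Glial markers summed to 59.9 and 986 CPM, a ratio of 16.5 (1.06 to 9248) that rests on 130 and 143 counts, and 9.43 by TMM, where the interval includes 1. Fibroblast markers held 483 CPM and B cell markers 281 CPM in normoxia and 0 in CIH, and of the neuronal markers only Isl1 was counted, with 60 counts in CIH. The part of these cells in the IFITM values was not tested.

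**Figure D1:**
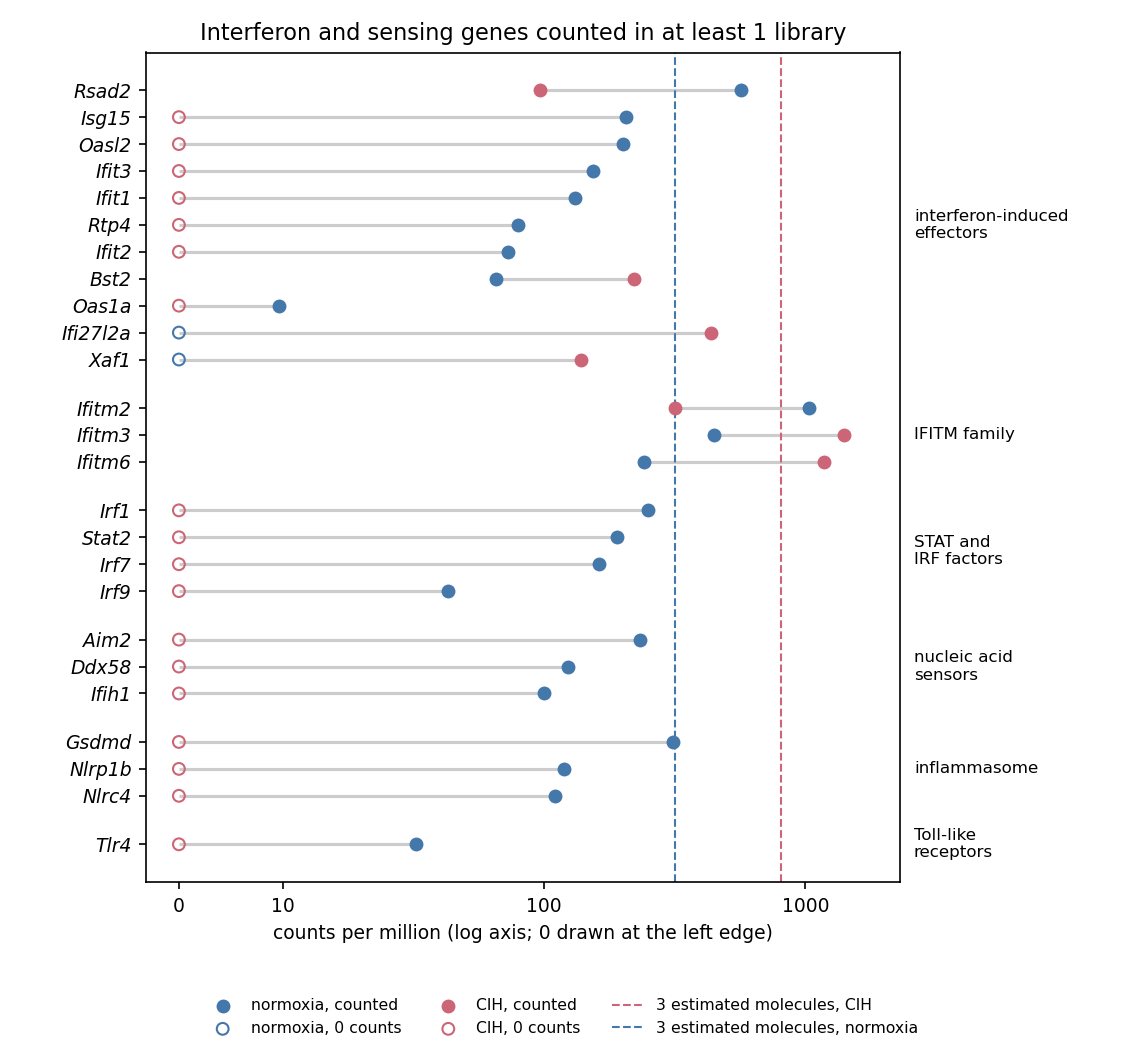
Level of each interferon and sensing gene counted in at least 1 library, in CPM on a log axis, with normoxia in blue, CIH in red and 0 counts as an open circle at the left edge. Dashed lines mark 3 estimated molecules, 316 CPM in normoxia and 807 CPM in CIH. Ifitm3 and Ifitm6 alone lie above that line in CIH, and the 18 genes at 0 in CIH all lie left of it in normoxia.

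Of the 18 interferon-induced effectors, 9 were counted in normoxia, 4 in CIH and 2 in both. The 7 seen in normoxia alone, of 11 counted at all, are near the share over all counted genes, which was 62.9%. The sum over all 18 was 1483 CPM in normoxia and 889 CPM in CIH, a ratio of 0.600 (0.122 to 2.06). Rsad2, which encodes the antiviral enzyme viperin (ENSMUSG00000020641, chromosome 12, 26442746 to 26456452), was read 1228 times in normoxia and 14 times in CIH, a ratio of 0.171 with an upper limit of 3.11. Without Rsad2 the ratio of the sub-group was 0.864 (0.147 to 3.53).

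The ubiquitin-like modifier Isg15 (ENSMUSG00000035692, chromosome 4, 156199424 to 156200818) was the most abundant effector per length in normoxia, at 496 TPM, with 445 counts there and 0 in CIH. The IFIT genes, whose proteins bind foreign RNA, formed a second group of this kind, with 335 counts for Ifit3, 284 for Ifit1 and 158 for Ifit2 in normoxia and 0 in CIH. Oasl2, of the oligoadenylate synthetase family, had 434 counts, Rtp4 173 and Oas1a 21, again with 0 in CIH. Values of Ifit3 and Oas1a are uncertain, because 41.1% and 47.6% of their 75-base stretches occur in other genes. Ifit3b and Oas1g share the most with them. To a lesser degree the same holds for Rtp4 (12.4%, with Gm45338 sharing the most) and Ifit1 (5.19%, with Ifit1bl2 sharing the most). Ifit3b, at 0 counts in both libraries, carries the same 84-base promoter stretch that is printed above for Ifit3.

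Bst2, Ifi27l2a and Xaf1 went the other way. Bst2 encodes tetherin, which holds budding viruses at the cell surface (ENSMUSG00000046718, chromosome 8, 71534255 to 71537456), and had 142 counts in normoxia and 32 in CIH, or 65.4 and 221 CPM. Its ratio of 3.37 has an interval of 0.017 to 1916, since the counts stand for less than 1 estimated molecule in each library (0.62 and 0.82). By TMM the ratio of Bst2 was 1.93. Ifi27l2a (ENSMUSG00000079017, chromosome 12, 103442167 to 103443680) was at 0 in normoxia and at 63 counts in CIH, where its 1317 TPM ranked 85. Those 63 counts stand for about 1.62 estimated molecules, and the lower limit of the ratio was 0.289. The pro-apoptotic gene Xaf1 had 0 and 20 counts, about 0.51 estimated molecules in CIH, with a lower limit of 0.0019. Bst2 is also a marker of plasmacytoid dendritic cells, whose other markers were at 202 and 0 counts for Siglech, 0 and 8 for Ccr9 and 104 and 9 for Tcf4, so the list summed to 206 and 338 CPM with Bst2. The part of such cells was not tested. Oasl1, Mx1, Mx2, Usp18, Ifi44, Ifi47 and Ifit3b had 0 counts in both libraries.

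All 4 STAT and IRF factors were counted in normoxia and none in CIH. Of all genes counted in normoxia, 25% were counted again in CIH. That share was 13.4% below 100 counts, 19.6% from 100 to under 500 and 40.8% from 500 to under 1000. The leading gene was Irf1, an early interferon-responsive factor (ENSMUSG00000018899, chromosome 11, 53770014 to 53778374), at 542 counts, followed by Stat2 (ENSMUSG00000040033, chromosome 10, 128270559 to 128292849) with 411. The master regulator of type I interferon genes, Irf7 (ENSMUSG00000025498), lies on chromosome 7 at 141262706 to 141266481 and had 353 counts. Irf9, the DNA-binding partner of STAT2, had 93. Their sum of 1399 counts comes to 6.11 estimated molecules. At an equal share of the library, 2.40 molecules would be looked for in CIH, and the upper limit of the ratio was 2.11.

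Of the 4 nucleic acid sensors, 3 were counted in normoxia and none in CIH. Over all genes, CIH held counts for 19.6% of those with 100 to under 500 counts in normoxia. From 500 to under 1000 counts this was 40.8%. Aim2, the sensor of cytosolic DNA, had 507 counts in normoxia, Ddx58, which encodes RIG-I, had 269, and Ifih1, which encodes MDA5, had 217, all with 0 in CIH. Zbp1, a sensor of nucleic acids in the left-handed Z form, had 0 in both libraries. The sub-group held 457 CPM in normoxia, and its ratio had an upper limit of 3.42.

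Of the 8 inflammasome genes, 3 were counted, all in normoxia alone, as were 62.9% of all genes counted in either library. Gsdmd, which encodes gasdermin D (ENSMUSG00000022575, chromosome 15, 75862327 to 75867408), reached 676 counts in normoxia, the receptor gene Nlrp1b had 258 and Nlrc4 had 238, with 0 in CIH for all 3. Of the 18 genes seen in normoxia alone, Gsdmd took the most reads, whereas per length Isg15 was higher, at 496 TPM against 321 TPM. Nlrp3, the adaptor gene Pycard, the caspase genes Casp1 and Casp4 and the cytokine gene Il18 had 0 counts in both libraries. The upper limit of the ratio was 2.69. For the Toll-like receptors, Tlr4, the receptor for bacterial lipopolysaccharide, had 70 counts in normoxia and 0 in CIH, and Tlr2 had 0 in both. A count of 0 allows up to 3 reads, or 1.38 CPM in normoxia and 20.7 CPM in CIH, and up to 3 estimated molecules, or 316 and 807 CPM. Absence from CIH was thus not distinguishable, at this depth, from an equal level for any of the 18 genes taken singly.

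The IFITM family gave a larger percent of the counts over the 40 genes in CIH than in normoxia. In normoxia the family gave 35.2% of the 10583 counts (21.8 to 50.7), the effectors 30.4% (17.8 to 45.7), the STAT and IRF factors 13.2% (5.07 to 26.4), the inflammasome genes 11.1% (3.76 to 23.8), the sensors 9.38% (2.80 to 21.6) and the Toll-like receptors 0.66%. In CIH the family gave 76.5% of 549 counts (47.1 to 94.3) and the effectors 23.5% (5.69 to 52.9), with no counts from the other 4 sub-groups. The IFITM intervals on estimated molecules overlap between 47.1% and 50.7%, whereas those on reads, 34.3 to 36.2% and 72.7 to 80.0%, lie apart. Without Ifitm2 the family's percentages were 17.9% (7.23 to 34.1) and 74.4% (43.4 to 93.7), and these intervals did not overlap. That alternative was chosen after the values were seen, and it drops the only counted gene of the family that was lower in CIH.

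**Figure D2:**
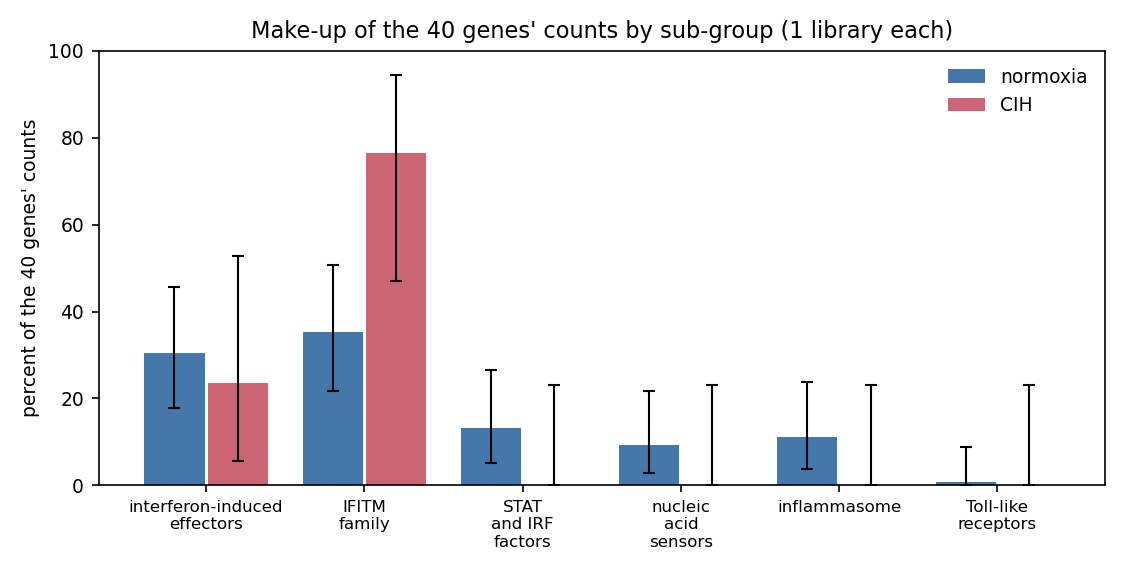
Percent of the counts over the 40 genes that each sub-group gave in normoxia (blue) and in CIH (red), 1 library each. Error bars are approximate 95% intervals on estimated molecules. The IFITM bar is 35.2% in normoxia and 76.5% in CIH, and 4 sub-groups have no counts in CIH.

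As a share of the library, the 40 genes took 0.487% in normoxia (0.478 to 0.497 on reads) and 0.378% in CIH (0.348 to 0.411 on reads). The ratio was 0.777 with an interval of 0.395 to 1.44 that includes 1. By TMM it was 0.445 (0.226 to 0.822) and with median-of-ratios size factors 0.462 (0.235 to 0.854), and these intervals lie below 1, so whether the interval includes 1 depends on the scaling. The IFITM family had a ratio of 1.69 (0.704 to 3.87) and the 36 other genes together had 6854 and 129 counts, a ratio of 0.282 (0.061 to 0.867), an interval below 1. The direction of the IFITM ratio turns with the scaling. It was 0.966 by TMM, 1.00 with median-of-ratios size factors and 1.85 with housekeeping genes. On these scalings the effectors were at 0.344 (0.070 to 1.18), 0.357 (0.072 to 1.23) and 0.659 (0.134 to 2.26), and each interval includes 1. TMM multiplies every ratio by 0.573, a shift of −0.80 on the log2 scale. Over the 4 sub-groups without a count in CIH, 11 genes gave 3634 counts in normoxia, which is 15.9 estimated molecules, and 6.22 would be looked for in CIH at an equal share. The pool's ratio had an upper limit of 0.667 (0.382 by TMM), below 1, whereas each of its sub-groups alone had a limit above 1. The pool joins sub-groups that had 0 counts in CIH, so its ratio of 0 was fixed by that choice. This pool and that of the 36 genes were formed after the values were seen, so their intervals are given as a description.

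Detection followed abundance. Of protein-coding genes in the table, 19.4% were counted in normoxia and 8.39% in CIH, against 23 and 7 of the 39 protein-coding genes studied here (Mx2 is annotated as a polymorphic pseudogene). Of all genes counted in normoxia, 25% were also counted in CIH, against 5 of 23 here. Among genes with fewer than 100 counts in normoxia that share was 13.4%, against 0 of 3 (Irf9, Tlr4 and Oas1a). From 100 to under 500 counts it was 19.6%, against 1 of 13, which was Bst2. From 500 to under 1000 counts it was 40.8%, against 2 of 5, which were Ifitm3 and Ifitm6, and from 1000 counts up it was 69.1%, against Ifitm2 and Rsad2, 2 of 2. Of protein-coding genes at 0 in normoxia, 4.11% were counted in CIH, against 2 of 16, which were Ifi27l2a and Xaf1.

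**Figure D3:**
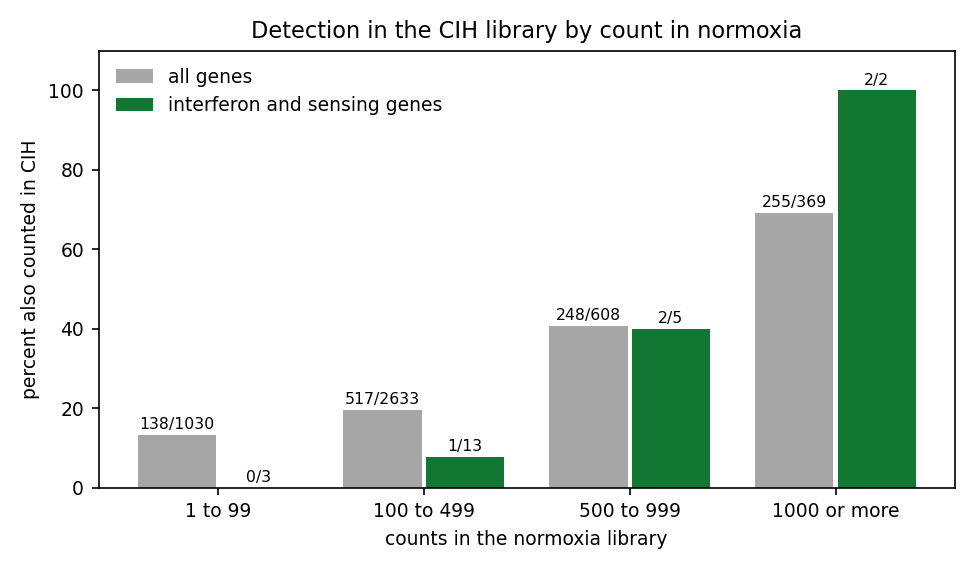
Percent of genes also counted in CIH, by their count in normoxia, for all genes (grey) and for the interferon and sensing genes (green), with the numbers of genes over the bars. The share rises with the count, from 13.4% to 69.1% for all genes, and the green bars rest on 3, 13, 5 and 2 genes.

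By a size rule on reads (at least 50 counts over both libraries, at least 2-fold, interval on reads without 1), all 23 genes tested were called. In CIH 4 were higher (Ifitm3, Ifitm6, Bst2 and Ifi27l2a) and 19 were lower, 17 of them at 0. The same rule called 16.1% of all 4215 genes tested higher and 71.5% lower, so on reads nearly every gene passes. With the interval on estimated molecules, 0 of the 23 were called in either direction, against 0.83% of all genes called higher and 0.38% called lower. Oas1a and Xaf1 had too few counts to be tested. The median log2 ratio of the 23 genes was −7.99, against −7.44 over all genes tested. It depends on how a 0 is replaced. With each 0 taken as 3 reads it was −2.52 against −1.95, and with each 0 as 3 estimated molecules it was 2.29 against 2.35.

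Other genes of the pathway were sparse in the same way. Their calls on reads stand beside 16.1% of all genes tested called higher and 71.5% called lower. Of 21 interferon and interleukin-1 family ligands and receptors, no interferon or interleukin-1 ligand was counted. The receptor genes Ifnar2 (941 and 51 counts), Ifngr1 (650 and 58) and Ifnlr1 (193 and 0) led, and 3 of 5 tested were lower on reads and none higher. The receptor subunit gene Ifnar2 held 433 and 352 CPM and Ifngr1 299 and 400 CPM. Among 12 other JAK, STAT and IRF genes, the kinase genes Jak1 (526 counts), Tyk2 (450) and Jak2 (349) had 0 in CIH, whereas Stat3 had 0 in normoxia and 26 in CIH, and Irf8 had 168 and 40. Here 1 of 7 tested was higher and 6 were lower on reads.

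Of the 20 adaptor and kinase genes found in the table, 9 were counted in normoxia and 1 in CIH, the NF-κB subunit gene Rela, with 550 and 67 counts. The adaptor gene Myd88 had 684 counts and the NF-κB gene Nfkb1 had 682, both with 0 in CIH. The list's ratio was 0.308 (0.027 to 1.45), with 8 of 9 tested lower on reads and none higher. Over all genes tested, 71.5% were lower on reads and 16.1% higher. Of 12 other Toll-like receptor and co-receptor genes, Unc93b1 (862 counts), Cd14 (243) and Tlr13 (206) were counted in normoxia and none in CIH, and these 3 were lower on reads.

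The largest list, 50 other interferon-induced genes found in the table, had 28 members counted in normoxia, 12 in CIH and 10 in both, with a ratio of 0.672 (0.372 to 1.15). On reads 3 of 25 tested were higher, 17 lower and 5 neither, against 16.1% higher and 71.5% lower over all genes tested. Those with most counts were Ly6e, at 3614 and 125 counts, Samhd1, at 1389 and 0, and the nuclease gene Isg20, at 1278 and 111. The 3 higher were the immunoproteasome subunit gene Psmb8 (234 and 136 counts), Slfn2 (32 and 91) and Phf11b (42 and 34). Also counted in CIH were Ifi204 (743 and 62), Slfn5 (569 and 28), Parp9 (586 and 13), Slfn1 (138 and 15), Ifi203 (23 and 17), and, with 0 in normoxia, the peptide transporter gene Tap1 (35) and Trim30a (14).

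Of 17 other inflammasome and pyroptosis genes found in the table, 5 were counted in normoxia and 4 in CIH. Their ratio was 1.61 (0.503 to 4.73), and 0.921 by TMM, on the other side of 1. The receptor genes Naip2 (106 counts) and Naip1 (33), whose proteins bind bacterial ligands and then activate NLRC4, were at 0 in normoxia, where Nlrc4 itself had its counts. Gsdme (684 and 0), Serpinb1a (528 and 59), a protease inhibitor abundant in neutrophils, and Txnip (514 and 55) had the most counts. On reads 1 of 6 tested was higher and 3 were lower, against 16.1% higher and 71.5% lower over all genes tested. No gene of these 6 lists was called on estimated molecules.

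**Figure D4:**
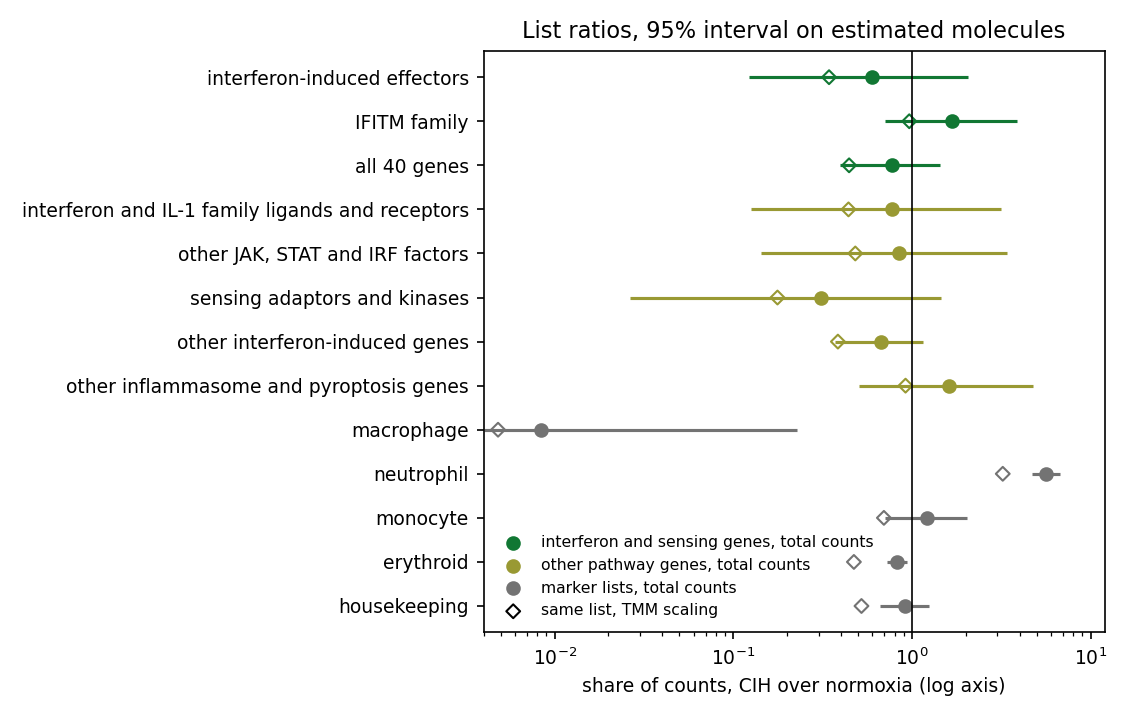
Share of counts in CIH over that in normoxia, on a log axis, for sub-groups of the 40 genes (green), other pathway lists (olive) and marker lists (grey). Dots use total counts with approximate 95% intervals on estimated molecules (the lower end for the macrophage list runs past the axis). Open diamonds use TMM. Intervals of the green and olive lists on total counts all span 1, and the neutrophil list lies at 5.63. Lists without a count in CIH are not drawn.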

How the data were processed

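The submitters' processing notes name STAR 2.5.2b, featureCounts from Subread 1.5.2 and bcl2fastq 2.20. The sources used here do not state build, annotation, strand setting or treatment of duplicates. Raw counts and TPM per gene were deposited by the authors. TPM was a rescaling of the counts within each gene (ratio 11.5 between libraries for all 1129 genes checked).

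Counts were scaled to library totals, because TMM (edgeR 4.0.16) and median-of-ratios (DESeq2 1.42.0) use only the 1158 genes counted in both libraries. Ratios carry Clopper-Pearson intervals on reads or on reads divided by 229 (normoxia) and 39 (CIH), the median count of genes counted in that library alone with at least 10 counts. No model was fitted to replicates, and p-values across conditions were not computed. The prior count was 0.5. Positions come from GENCODE M21 on GRCm38. The genes and lists were chosen with earlier results of these data known, and every gene of the 40 was named by rule, with the 3 most counted genes of each other list and those counted in CIH, except an item that is not reported here. The gamma-interferon element and the copies of 75 bases were added after the values were seen. Python 3.11.15, scipy 1.17.1, pandas 2.3.3 and R 4.3.3 were used. The calculations were tested on simulated data, with either independent reads or a like number of reads for each molecule. Whether the real libraries meet these settings was not tested.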

Additional observations from a re-analysis of the deposited data

How the results depend on the processing

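No paired analysis was possible because each group has 1 library. For the same reason no library could be left out. Of the 40 genes, 23 were counted in normoxia and 7 in CIH at 1 count or at 10 counts. The 4 genes called higher on reads became 2 with TMM, 2 with at least 200 counts, 2 with a 4-fold limit and 0 on estimated molecules, and were 3 to 5 otherwise. The 19 called lower became 0 on estimated molecules and were 15 to 19 otherwise. The ratio of the 40 genes was 0.445 with TMM, 0.462 with median-of-ratios, 0.853 with housekeeping genes and 0.902 without Ifitm2. The effectors were at 0.344, 0.357 and, without Rsad2, 0.864. The IFITM family was at 0.966, 1.00 and, without Ifitm2, 3.74 (1.25 to 12.1), and without Ifitm2 its percent of the counts in normoxia was 17.9%. Ifitm2 was the only counted gene of the family that was lower in CIH, so leaving it out could only raise the family's ratio. The value of 3.74 uses total counts, and it was not computed by TMM. The median log2 ratio was −8.80 with TMM, −2.52 with each 0 as 3 reads, and turned to 2.29 with each 0 as 3 estimated molecules. The changes under TMM and median-of-ratios are their common factors of 0.573 and 0.595. Upper limits for sub-groups at 0 in CIH stayed above 1 under each scaling tried. Depth in CIH, about 3719 molecules, limits every comparison.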
